A study of Schizosaccharomyces pombe with 6 samples.

Results

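Chromatin remodelling complexes use ATP to slide, eject or exchange nucleosomes, and histone chaperones of the FACT type help RNA polymerase II pass through them. The genes described here encode subunits of 4 remodellers of fission yeast, Schizosaccharomyces pombe, namely Ino80, Swr1, RSC and SWI/SNF. Both subunits of the FACT complex are included. Members were the coding genes whose product in the authors' deposited table names Ino80, Swr1, the RSC complex, SWI/SNF or the FACT complex and does not name TFIID, SAGA or mediator. This gave 39 of 6986 features and of 5109 coding genes: 13 for Ino80, 10 for Swr1, 12 for RSC, 10 for SWI/SNF and 2 for FACT, with 8 genes listed under 2 complexes. The ATPase genes snf21 and snf22 of RSC and SWI/SNF carry other product wordings and are no members, so their values are given apart. Other subunits whose product does not name a complex, such as actin, are not counted under it. Counts per complex below are therefore not counts over whole complexes.

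Polyadenylated RNA was sequenced from 3 libraries of the strain STF19 and from 3 libraries of a wild type, all from log-phase cultures in vegetative growth in the rich medium YES at 30 °C. STF19 was h+ with the seb1-G476S allele and rpb1-CTD-WT29::KanMX, and the wild type was h+ with rpb1-CTD-WT29::NatMX. Both therefore carried a marked rpb1 locus, with different markers. Seb1 binds nascent RNA and helps RNA polymerase II to end transcription. The allele came, per the series title, from a genetic screen on interference by lncRNA transcription, and the comparison asked which RNA levels differ in its presence. The libraries of both strains were sequenced within one run, and the design text calls the replicates biological. Each group was 1 lab strain, so the allele, the marker and any other difference between the strains cannot be told apart.

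In yeasts, Ino80 positions and spaces nucleosomes around promoters, and Swr1 exchanges histone H2A for the variant H2A.Z. RSC and SWI/SNF are related complexes that clear nucleosomes from promoters, RSC being the one needed for viability. Actin-related proteins and the AAA ATPases Rvb1 and Rvb2 are shared building blocks of several of these machines.

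Counts per library summed to between 21013941 and 27910803, and levels below are CPM, counts scaled to a common library size after TMM, a trimmed mean of ratios between libraries. Every member was detected, with between 53 and 5240 counts per library, and all 39 passed the filter on low counts. The mRNA of seb1 itself was at 368, 361 and 341 CPM in the seb1-G476S libraries, against 133, 119 and 108 CPM in the wild-type libraries, with no overlap (log2 fold change 1.57, SE 0.077, adjusted p = 7.33e-07). This level does not check which base a library carries. Of the markers for M cells (the h- type), 6 of 7 were found, with mat1-Mc at 0 counts in every library. Their summed level was 59.9 to 67.1 CPM in seb1-G476S and 54.0 to 64.2 CPM in wild type. Most of this sum was mam1, which was not called (log2 fold change -0.17). Called higher were mam2 (0.64) and mfm1 (0.94), while mfm2 and mfm3 were not called. The P cell (h+) markers had 2 of 4 found, with sums of 64.3 to 75.5 CPM in seb1-G476S and 33.8 to 41.8 CPM in wild type. This difference was that of map3, at a mean of 65.3 CPM in seb1-G476S and 31.8 CPM in wild type. The other, map2, was not called (log2 fold change 0.083). The 6 meiotic markers summed to 50.8 to 55.0 CPM in seb1-G476S and 55.6 to 64.7 CPM in wild type. Most of this sum was mde10, at a mean of 45.8 CPM in seb1-G476S and 52.6 CPM in wild type, which was not called. The only called meiotic marker, mei3, was higher, at 1.49 CPM in seb1-G476S and 0.389 CPM in wild type (log2 fold change 1.91, edgeR adjusted p = 0.00114). The part of all these markers in the results below was not tested.

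Wild-type replicate 3 stood apart from the other wild-type libraries, and it did so in the genes described here. It was the highest of the 3 wild-type libraries for 32 of the 39 members, or 82.1%, against 47.2% of all tested coding genes. The median member lay 0.25 above the wild-type mean on the log2 CPM scale in that library, and at -0.18 and -0.065 in wild-type replicates 1 and 2. In seb1-G476S replicates 1, 2 and 3 the median member was at -0.40, -0.35 and -0.29. Coding genes below the median coding level shared this shift, with medians of 0.16 in wild-type replicate 3 and -0.32, -0.29 and -0.25 in the seb1-G476S replicates. Fold changes of members that moved by over 1.5 times or changed sign without this library are given both with and without it.

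Subunit mRNAs of the remodellers were lower in seb1-G476S. In edgeR's quasi-likelihood test across all features, 23 of the 39 members fell and 1 rose at an adjusted p under 0.05, against a background of 31.5% lower, 24.3% higher and 55.8% in either direction among the 4953 tested coding genes. The share of members that fell was 59.0%. The median log2 fold change, seb1-G476S over wild type, was -0.38 for the members and -0.046 for the coding genes. All 3 seb1-G476S libraries lay below all 3 wild-type libraries for 25 members and above them for 2, where the background among coding genes was 35.7% below and 28.7% above. Of the members that fell, 13 did so by at least 1.5-fold, which is 33.3% of all members, against 14.2% of coding genes, and no member rose that much against a background of 6.88%.

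Without wild-type replicate 3 there were 21 members lower and 3 higher, with a background of 33.3% lower and 25.2% higher among coding genes, and the median was -0.26. All 21 were among the 23 found with every library. Without seb1-G476S replicate 1 the test called 15 members lower and 1 higher, against 25.7% and 20.2% of coding genes. With library totals alone as scaling, which moved the median of all features by -0.12, 25 members were lower and 0 higher, against 42.3% and 16.3%. With the replicate number as a block 26 were lower and 2 higher, against 37.6% and 29.0%. In bulk RNA, a lower share of cells that express a gene and less RNA per cell cannot be told apart.

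**Figure D1:**
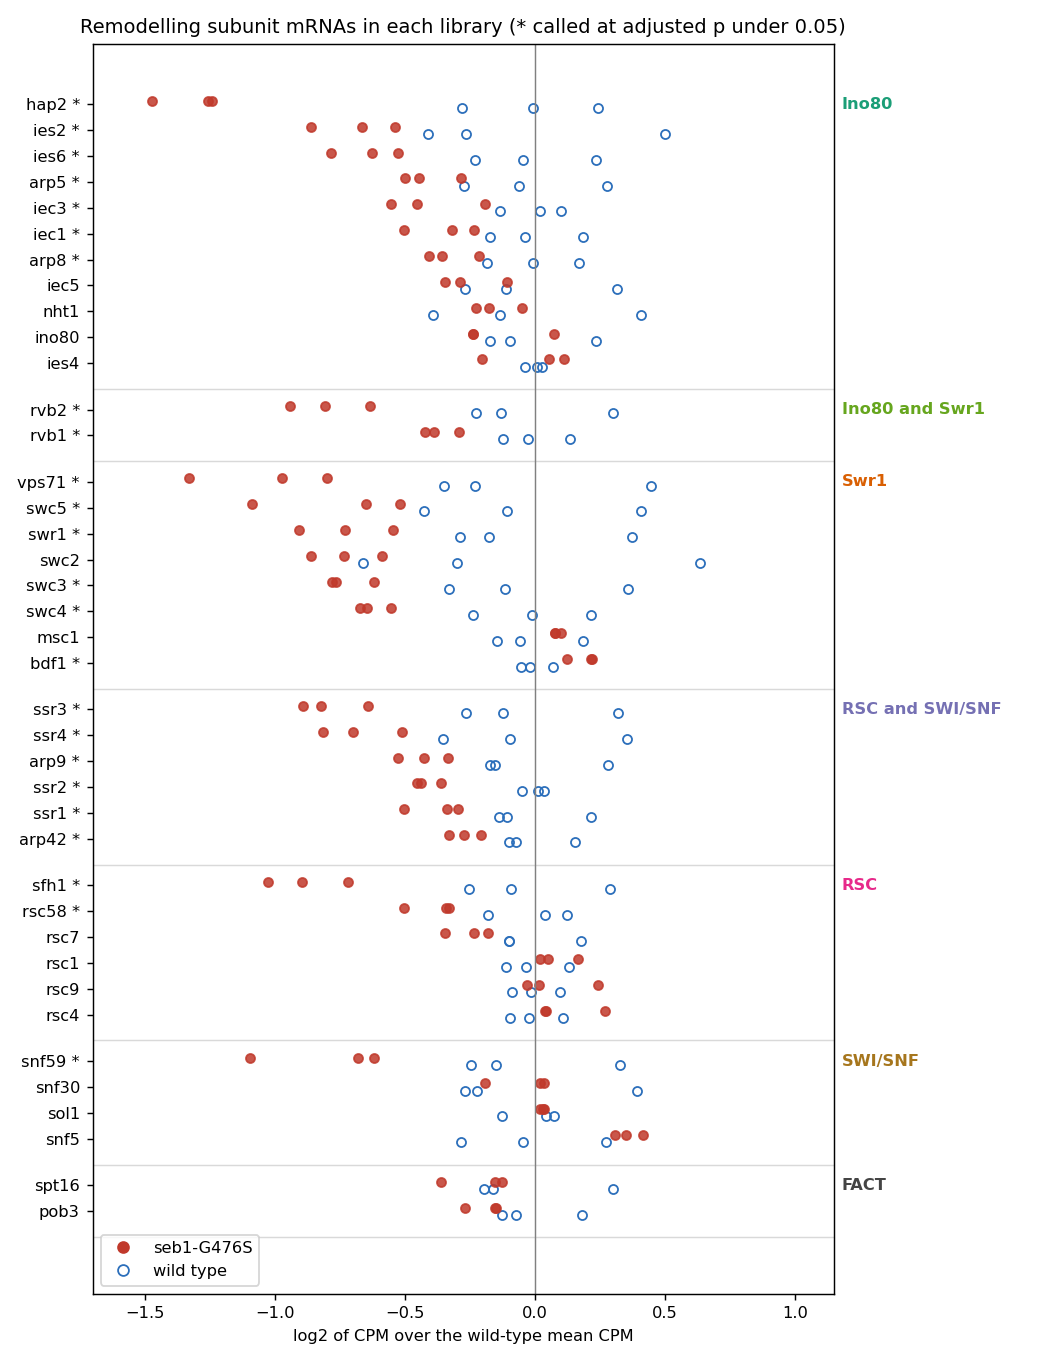
Level of each of the 39 subunit mRNAs in each library, as the log2 of its CPM over the mean CPM of the wild-type libraries, grouped by complex. Filled points are the 3 seb1-G476S libraries and open points the 3 wild-type libraries; in 25 genes all filled points lie left of all open ones.

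Most members were mRNAs of modest abundance, and coding genes in that range were lower in general. Of the 39 members, 26 lay below the median level of tested coding genes, 53.5 CPM over the 6 libraries. In that range 18 of 26 members fell, or 69.2%, and 0 rose, where 45.7% of all coding genes of the range were lower and 13.4% higher. The median log2 fold change there was -0.52 for members and -0.30 for coding genes. Among the 13 members at or above the median level, 5 fell (38.5%) and 1 rose, where 17.4% of such coding genes were lower and 35.1% higher. Called falls of at least 1.5-fold made up 7.69% of these members and 2.42% of such coding genes. Expression level moved with the fold change, and its part in the fall of the members was not tested beyond this split.

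**Figure D2:**
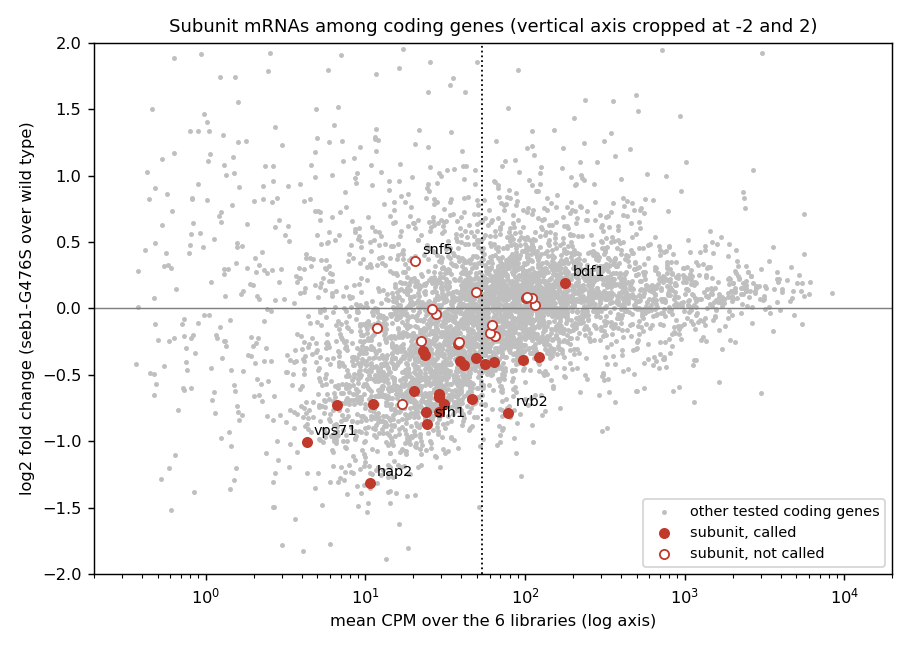
Log2 fold change of seb1-G476S over wild type against mean CPM over the 6 libraries (log axis) for tested coding genes (grey) and the 39 subunit genes (larger points; filled where called). The dotted line is the coding median of 53.5 CPM, 27 coding genes lie outside the axes, and the subunits left of the line lie mostly below 0.

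The Ino80 complex is built on the large ATPase Ino80 with the actin-related proteins Arp5 and Arp8 and a set of small subunits. Of the 13 genes whose product names it 9 fell (69.2%) and 0 rose, with a median of -0.36. Among tested coding genes 31.5% were lower and 24.3% higher. The median level of the 13 genes was 28.9 CPM, and 45.7% of coding genes below the coding median level were lower. The deepest fall of all members was that of hap2 (SPCC16C4.20c, chromosome III), an HMG box protein. Its level was 6.39, 6.46 and 5.51 CPM in the seb1-G476S libraries, against 12.6, 15.2 and 18.1 CPM in the wild-type libraries. Every seb1-G476S library was far below every wild-type library (log2 fold change -1.32, SE 0.16, adjusted p = 0.000188). Leaving out wild-type replicate 3 gave -1.19 for hap2.

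The ATPase gene ino80 (SPAC29B12.01, chromosome I) was at 55.4, 55.3 and 68.6 CPM in the seb1-G476S libraries, against 57.8, 61 and 76.9 CPM in the wild-type libraries. Its groups overlapped and it was not called (log2 fold change -0.13, SE 0.12, adjusted p = 0.393), with a 95% interval of -0.40 to 0.14 for the log2 fold change. A fall as deep as that of hap2 lies outside this interval. The log2 fold change of ino80 was 0.0022 without wild-type replicate 3.

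The small subunit gene ies6 (SPAC222.04c, chromosome I) was at 20.5, 22.8 and 24.5 CPM in the seb1-G476S libraries, against 30.1, 34.2 and 41.5 CPM in the wild-type libraries, again with no overlap (log2 fold change -0.64, SE 0.13, adjusted p = 0.00294). For ies2 (SPAC6B12.05c, chromosome I) the values were 31.5, 36.2 and 39.5 CPM in the seb1-G476S libraries, against 43.1, 47.8 and 81 CPM in the wild-type libraries. Wild-type replicate 3 was by far the highest of these. The call of ies2 (log2 fold change -0.68, SE 0.21, adjusted p = 0.0197) gave way in DESeq2 (adjusted p = 0.0586) and without seb1-G476S replicate 1 (edgeR adjusted p = 0.0791), and its log2 fold change without wild-type replicate 3 was -0.35.

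Both actin-related proteins of Ino80 were lower by smaller amounts. The gene arp5 was at 55.2 ± 4.35 CPM in seb1-G476S and 73.2 ± 14.3 CPM in wild type (SD, n = 3 each), with a log2 fold change of -0.41, and arp8 was at 20.4 ± 1.41 CPM in seb1-G476S and 25.5 ± 3.11 CPM in wild type, with -0.32. The subunit genes iec3 and iec1 were called at -0.39 and -0.35. These 4 calls had edgeR adjusted p-values between 0.0136 and 0.0427, and each was lost without at least 1 library. The log2 fold change of arp5 was -0.25 without wild-type replicate 3. Not called were iec5 at -0.24, the HMG box gene nht1 at -0.15, and ies4 at -0.0054. Without wild-type replicate 3 iec5 was at -0.061, nht1 changed sign to 0.10, and ies4 was at -0.027. For ies4 the 95% interval was -0.25 to 0.24, so a change of 1.5-fold in either direction lies outside it.

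The AAA ATPases Rvb1 and Rvb2 form a mixed ring that scaffolds both Ino80 and Swr1, and their product names also list the ASTRA complex. Both mRNAs fell, with the larger log2 fold change for rvb2. The gene rvb2 (SPBC83.08, chromosome II) was at 51.9, 56.9 and 64.1 CPM in the seb1-G476S libraries, against 85.1, 91 and 122 CPM in the wild-type libraries. No overlap between groups was seen (log2 fold change -0.79, SE 0.13, adjusted p = 0.000976). For rvb1 (SPAPB8E5.09, chromosome I) the levels were 102, 105 and 112 CPM in the seb1-G476S libraries, against 126, 135 and 151 CPM in the wild-type libraries, also without overlap (log2 fold change -0.36, SE 0.074, adjusted p = 0.00279). Per kilobase of annotated exon, the ratio of rvb2 to rvb1 was 0.547, 0.586 and 0.618 in seb1-G476S, against 0.729, 0.731 and 0.878 in wild type. An exact two-sided permutation test of this ratio gave p = 0.1, the smallest that 3 against 3 libraries allow, and 0.15 after adjustment over the 3 pairs compared.

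Swr1 had the deepest median of the complexes, at -0.72. Of its 10 genes 7 fell and 1 rose, and 6 of the falls were of at least 1.5-fold. Among tested coding genes 31.5% were lower, 14.2% by at least 1.5-fold, and 24.3% were higher. The median level of the 10 genes was 25.6 CPM. Of coding genes below the coding median level 45.7% were lower, and 26% were lower by at least 1.5-fold. The ATPase gene swr1 (SPAC11E3.01c, chromosome I), whose product exchanges H2A for H2A.Z, was at 20.6, 23.3 and 26.4 CPM in the seb1-G476S libraries, against 31.7, 34.2 and 50.0 CPM in the wild-type libraries. Every seb1-G476S library was below every wild-type library, and wild-type replicate 3 was the highest (log2 fold change -0.72, SE 0.17, adjusted p = 0.00632). Without that replicate the value was -0.49 (edgeR adjusted p = 0.00199).

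The lowest-expressed member was vps71 (SPBC29A3.05, chromosome II), whose counterpart in Saccharomyces cerevisiae has a zinc finger of the HIT type. Its level was 2.29, 3.30 and 2.93 CPM in the seb1-G476S libraries, against 4.51, 4.90 and 7.83 CPM in the wild-type libraries, so that the fall rests on the fewest counts of any member (log2 fold change -1.01, SE 0.24, adjusted p = 0.00644). The genes swc3 (SPAC4H3.02c, chromosome I) and swc4 (SPAC9G1.13c, chromosome I), the second of which encodes a subunit shared with the NuA4 acetyltransferase in S. cerevisiae, both fell. The level of swc3 was 8.07, 8.17 and 9.05 CPM in the seb1-G476S libraries, against 11, 12.8 and 17.8 CPM in the wild-type libraries. That of swc4 was 15.3, 15.6 and 16.6 CPM in the seb1-G476S libraries, against 20.7, 24.2 and 28.4 CPM in the wild-type libraries. In neither did the groups overlap, and the log2 fold changes were -0.72 (SE 0.18, adjusted p = 0.00776) and -0.62 (SE 0.13, adjusted p = 0.00341).

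The values of swc5 and swc2 were less certain. For swc5 (SPCC576.13, chromosome III) the values were 3.89, 5.75 and 5.26 CPM in the seb1-G476S libraries, against 6.14, 7.65 and 10.9 CPM in the wild-type libraries (log2 fold change -0.73, SE 0.23, adjusted p = 0.0232), and the call was lost without seb1-G476S replicate 1 (adjusted p = 0.0910) or 3 (adjusted p = 0.0531). The log2 fold change of swc5 was -0.48 without wild-type replicate 3. The gene swc2, whose S. cerevisiae counterpart binds the H2A.Z-H2B dimer, was at 11.6, 14 and 12.7 CPM in the seb1-G476S libraries, against 13.3, 17.1 and 32.7 CPM in the wild-type libraries. Wild-type replicate 3 was far above the other libraries there. The groups overlapped, swc2 was not called (log2 fold change -0.72, SE 0.28, adjusted p = 0.0525), and its log2 fold change without that library was -0.26. It passed in DESeq2 (adjusted p = 0.0148).

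In contrast, bdf1 (SPCC1450.02, chromosome III), which encodes a protein that binds acetylated histones through bromodomains, was the member that rose. It was at 183, 194 and 195 CPM in the seb1-G476S libraries, against 162, 165 and 176 CPM in the wild-type libraries, with all seb1-G476S libraries above all wild-type libraries (log2 fold change 0.19, SE 0.057, adjusted p = 0.0195). Its rise was small, and with library totals alone as scaling it was 0.069 (adjusted p = 0.408). The call was also lost without any of 3 libraries, seb1-G476S replicates 2 and 3 and wild-type replicate 2. The PHD finger gene msc1 was at 106 ± 0.976 CPM in seb1-G476S and 99.8 ± 12.1 CPM in wild type (SD, n = 3 each), with a log2 fold change of 0.086 that did not pass, and of 0.18 without wild-type replicate 3, which did (adjusted p = 0.0142).

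**Figure D3:**
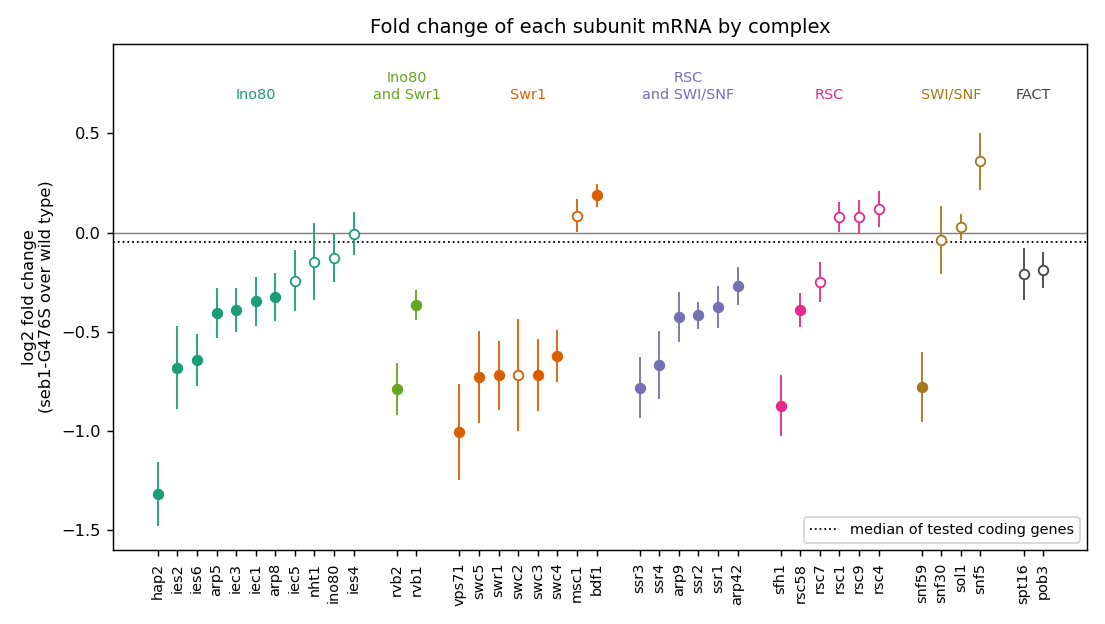
Log2 fold change of seb1-G476S over wild type for each subunit gene, with its standard error, grouped by complex. Filled points were called at an adjusted p under 0.05, the dotted line is the median of tested coding genes (-0.046), and the 6 subunits shared by RSC and SWI/SNF are all filled and below 0.

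By product name RSC and SWI/SNF share 6 subunits, and all 6 of these genes fell, with a median of -0.42. Their median level was 39.7 CPM. Among tested coding genes 31.5% were lower, and 45.7% of those below the coding median level. The 6 genes named for RSC alone had 2 lower and a median of -0.086, and the 4 named for SWI/SNF alone had 1 lower and a median of -0.0056; the difference between these groups of genes was not tested. The deepest of the shared falls was that of ssr3 (SPAC23G3.10c, chromosome I), at 20.7, 19.7 and 23.4 CPM in the seb1-G476S libraries, against 30.5, 33.6 and 45.7 CPM in the wild-type libraries. Next came ssr4 (SPBP23A10.05, chromosome II), at 20.3, 22 and 25.1 CPM in the seb1-G476S libraries, against 28, 33.4 and 45.7 CPM in the wild-type libraries. In both genes the groups did not overlap, with wild-type replicate 3 highest (-0.78, adjusted p = 0.00223, and -0.67, adjusted p = 0.00842, in edgeR). The SANT-domain subunit gene ssr2 (SPAC23H3.10, chromosome I) had tight values of 50.1, 47.5 and 47 CPM in the seb1-G476S libraries, against 65, 62.1 and 66 CPM in the wild-type libraries. Wild-type replicate 3 was close to replicates 1 and 2, and the groups did not overlap (log2 fold change -0.42, SE 0.067, adjusted p = 0.000751). Its relative ssr1 was at 43.1 ± 3.21 CPM in seb1-G476S and 56 ± 7.89 CPM in wild type (SD, n = 3 each), with a log2 fold change of -0.38. The call of ssr1 (edgeR adjusted p = 0.0142) was lost without seb1-G476S replicate 1 (adjusted p = 0.0604).

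The shared pair of actin-related proteins, Arp9 and Arp42, belongs to a family whose members bind the remodeller ATPase in S. cerevisiae. The level of arp9 (SPAC1071.06, chromosome I) was 32.9, 35.2 and 37.6 CPM in the seb1-G476S libraries, against 42.6, 42 and 57.5 CPM in the wild-type libraries. That of arp42 (SPAC23D3.09, chromosome I) was 36, 34.4 and 33.1 CPM in the seb1-G476S libraries, against 39.6, 38.8 and 46.3 CPM in the wild-type libraries. Both fell, at -0.43 (edgeR adjusted p = 0.0166) and -0.27 (adjusted p = 0.0348), and each call was lost without at least 2 of the libraries in turn. The log2 fold change of arp9 was -0.27 without wild-type replicate 3. Per kilobase of exon the ratio of arp9 to arp42 was 1.39, 1.56 and 1.72 in seb1-G476S and 1.63, 1.64 and 1.89 in wild type, with overlap (exact two-sided permutation p = 0.3).

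Sfh1 and Snf5 are related proteins, the first in RSC and the second in SWI/SNF, and their mRNAs lay at opposite ends of the order. The gene sfh1 (SPCC16A11.14, chromosome III) was at 15.4, 16.9 and 19 CPM in the seb1-G476S libraries, against 29.4, 26.3 and 38.2 CPM in the wild-type libraries, the third deepest fall of all members (log2 fold change -0.87, SE 0.15, adjusted p = 0.00121). The gene snf5 (SPAC2F7.08c, chromosome I) was at 22.9, 23.9 and 22.2 CPM in the seb1-G476S libraries, against 14.8, 17.4 and 21.7 CPM in the wild-type libraries. Here the seb1-G476S libraries all lay above the wild-type ones, but by a narrow gap to wild-type replicate 3 (log2 fold change 0.36, SE 0.14, adjusted p = 0.0560). It did not pass the test with all libraries. Without wild-type replicate 3 its log2 fold change was 0.51 and passed (adjusted p = 0.00153), and it passed as well in DESeq2 (adjusted p = 0.0344). It passed in 4 of the 13 alternative settings in all. With library totals alone its log2 fold change was 0.235 and did not pass (edgeR adjusted p = 0.246).

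The other RSC subunit genes differed among themselves. The gene rsc58 (SPAC1F3.07c, chromosome I) fell, with 87.5, 87 and 77.7 CPM in the seb1-G476S libraries, against 119.9, 113 and 97.2 CPM in the wild-type libraries (log2 fold change -0.39, SE 0.085, adjusted p = 0.00407), and wild-type replicate 3 was its lowest wild-type library. The bromodomain genes rsc1 and rsc4 were not called, at 105 ± 5.62 CPM in seb1-G476S and 99.2 ± 8.55 CPM in wild type and at 51 ± 4.82 CPM in seb1-G476S and 47 ± 3.39 CPM in wild type (SD, n = 3 each). Their 95% intervals were -0.087 to 0.25 and -0.084 to 0.32, and rsc9 had one of -0.10 to 0.26. For all 3 a fall of 1.5-fold lies outside the interval. The log2 fold changes of rsc1, rsc4 and rsc9 were 0.080, 0.12 and 0.081, and without wild-type replicate 3 they were 0.024, 0.071 and 0.035. The gene rsc7 had a log2 fold change of -0.25 (adjusted p = 0.0569), with its seb1-G476S libraries all below the wild-type ones. It passed as lower in DESeq2 (adjusted p = 0.0428), with the replicate block (0.0231), with library totals alone (0.0214) and when wild-type replicate 1 was left out (0.0363). Its log2 fold change was -0.16 (edgeR adjusted p = 0.0927) when wild-type replicate 3 was left out.

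Of the genes named for SWI/SNF alone, snf59 (SPBC26H8.09c, chromosome II) fell, with 14.3, 19 and 19.9 CPM in the seb1-G476S libraries, against 25.7, 27.5 and 38.3 CPM in the wild-type libraries (log2 fold change -0.78, SE 0.18, adjusted p = 0.00466). The ARID-domain gene sol1 was not called, at 116 ± 0.664 CPM in seb1-G476S and 114 ± 8.34 CPM in wild type (SD, n = 3 each; 95% interval -0.12 to 0.17). Its log2 fold change was 0.028, and -0.035 without wild-type replicate 3. The log2 fold change of snf30 was -0.039, and its wild-type libraries spanned 23.5 to 37.1 CPM. Without wild-type replicate 3, the highest of them, it changed sign to 0.20 and was not called (edgeR adjusted p = 0.0938).

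The ATPase genes of the same complexes, outside the membership rule, also differed. The gene snf21, of RSC, was at 27, 28.9 and 31.5 CPM in the seb1-G476S libraries, against 38.4, 41.8 and 58.7 CPM in the wild-type libraries, with no overlap (log2 fold change -0.67, SE 0.15, adjusted p = 0.00475). Its paralogue snf22, of SWI/SNF, was at 95.1, 97.6 and 102 CPM in the seb1-G476S libraries, against 87.1, 94 and 97.5 CPM in the wild-type libraries. These overlapped and did not pass (log2 fold change 0.083, SE 0.063, adjusted p = 0.285). The ratio of snf21 to snf22 per kilobase of exon was 0.475, 0.495 and 0.515 in seb1-G476S, against 0.736, 0.744 and 1.01 in wild type, so that the groups of ratios did not overlap. The exact two-sided permutation p was 0.1, the smallest possible, and 0.15 adjusted over the 3 pairs.

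FACT, a heterodimer of Spt16 and Pob3 that handles H2A-H2B dimers during transcription and replication, had 0 of 2 genes called. The gene spt16 (SPBP8B7.19, chromosome II) was at 54.4, 62.8 and 64 CPM in the seb1-G476S libraries, against 61, 62.5 and 86.2 CPM in the wild-type libraries, with overlap (log2 fold change -0.21, SE 0.13, adjusted p = 0.190). For pob3 (SPBC609.05, chromosome II) the levels were 53.2, 57.6 and 57.8 CPM in the seb1-G476S libraries, against 58.7, 60.9 and 72.7 CPM in the wild-type libraries. All seb1-G476S libraries of pob3 were below the wild-type ones by a small gap (log2 fold change -0.19, SE 0.090, adjusted p = 0.0993). When wild-type replicate 3 was left out, the log2 fold changes were -0.035 for spt16 and -0.092 for pob3. At an unadjusted p under 0.05, 0 of 2 passed in edgeR, and in DESeq2 0 of 2 passed at an adjusted p under 0.05.

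Before any comparison between strains, the members differed widely in level. Per kilobase of annotated exon, wild-type levels spanned 9.37-fold, with a median of 20.5 CPM per kilobase against 29.6 for all tested coding genes. The highest per-length levels were those of rvb1 (60.3 in seb1-G476S and 77.6 in wild type), rsc58 (57.2 in seb1-G476S and 74.9 in wild type) and bdf1 (77.1 in seb1-G476S and 67.7 in wild type), as mean CPM per kilobase. The lowest were those of vps71 (4.10 in seb1-G476S and 8.29 in wild type), swc3 (5.66 in seb1-G476S and 9.31 in wild type) and swr1 (5.84 in seb1-G476S and 9.62 in wild type). In the order of wild-type levels no pair of neighbours was separated: the libraries overlapped in all 38. In seb1-G476S bdf1 held the first place in the order, and hap2 was ranked 21 where it was ranked 9 in wild type.

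**Figure D4:**
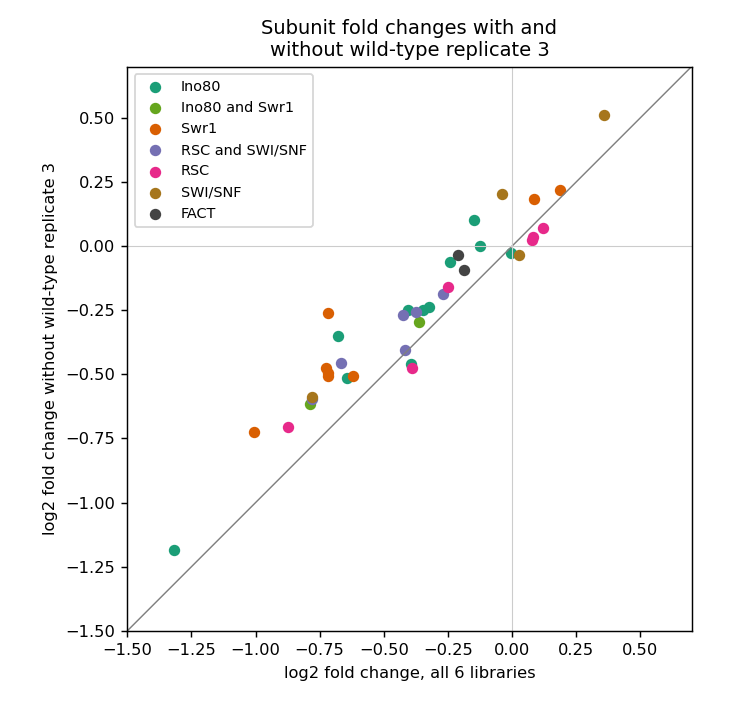
Log2 fold change of each subunit gene without wild-type replicate 3 (vertical) against the value with all 6 libraries (horizontal), coloured by complex, with the line of equality. Most genes lie above the line, among them swc2 at -0.26 against -0.72, while rsc58 and iec3 lie below it.

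The counts were checked against the features around each gene, since reads of overlapping transcripts can be counted for either where counting does not use strand, and the sources used here do not state the strand option. In the reference annotation 22 of the 39 members are overlapped by a feature on the opposite strand. Of these 13 fell and 0 rose, and of the 17 with no such overlap 10 fell and 1 rose. Among all tested coding genes 31.5% were lower and 24.3% higher. The overlapping features themselves had 9 lower and 5 higher among 24 tested, against a background of 28.7% lower and 25.0% higher. The gene lin1, opposite rvb2, fell by 0.89 on the log2 scale, and taf4, opposite ssr3, fell by 0.74, so the values of these pairs are uncertain in how reads were split between them. An antisense feature over nht1 was at 1.64, 1.48 and 1.25 CPM in the seb1-G476S libraries, against 0.257, 0.466 and 0.0890 CPM in the wild-type libraries. All its seb1-G476S values were above the wild-type ones (log2 fold change 2.37, edgeR adjusted p = 0.000823), while nht1 itself was not called. Over arp5, SPBC365.11-antisense-1 rose by 0.96. The antisense features named for ies4 and swc3 were at most at 1.04 CPM in any library and were not called.

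Because Seb1 acts in termination, the next feature upstream on the same strand was also read for each member. Of 26 members with such a neighbour, 20 neighbours were tested, and 9 rose while 2 fell. The background, for the same neighbours of all tested coding genes, was 28.9% higher and 26.2% lower. It was not matched for level. Among coding genes at or above the coding median of 53.5 CPM, 35.1% were higher and 17.4% lower. Of the neighbours that rose, SPAC4H3.03c and SPNCRNA.427 lay below this level and the others above it. The neighbours' median log2 fold change was 0.17, against 0.014 for those of all coding genes. Where the next upstream feature lay on the opposite strand, 11 were tested, with 1 higher and 5 lower. The background for that kind was 24.5% higher and 29.0% lower. Of 15 members that fell and had a tested same-strand upstream neighbour, 7 had one that rose and 2 had one that fell. The same count was not made for all coding genes that fell, so it has no background here. Upstream of hap2, SPCC16C4.02c rose by a log2 fold change of 0.28 (edgeR adjusted p = 0.00448). The gene SPAC4H3.03c, upstream of swc3, was at 6.74, 6.20 and 5.64 CPM in the seb1-G476S libraries, against 2.70, 2.95 and 3.12 CPM in the wild-type libraries, a rise of 1.08 without overlap (edgeR adjusted p = 0.000412). Upstream of spt16, the non-coding feature SPNCRNA.427 was at 3.32, 6.20 and 6.55 CPM in the seb1-G476S libraries, against 0.987, 2.84 and 0.979 CPM in the wild-type libraries (1.72, edgeR adjusted p = 0.00542). The other same-strand neighbours that rose were hpm1, sec62, rpa12, eng2, sib2 and vps1, by 0.21 to 0.35. The same-strand neighbours that fell were luc7, upstream of sfh1 (-0.54), and SPAC11E3.02c, upstream of swr1 (-0.36). Whether reads run from these features into the members was not measured by counts per feature.

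**Figure D5:**
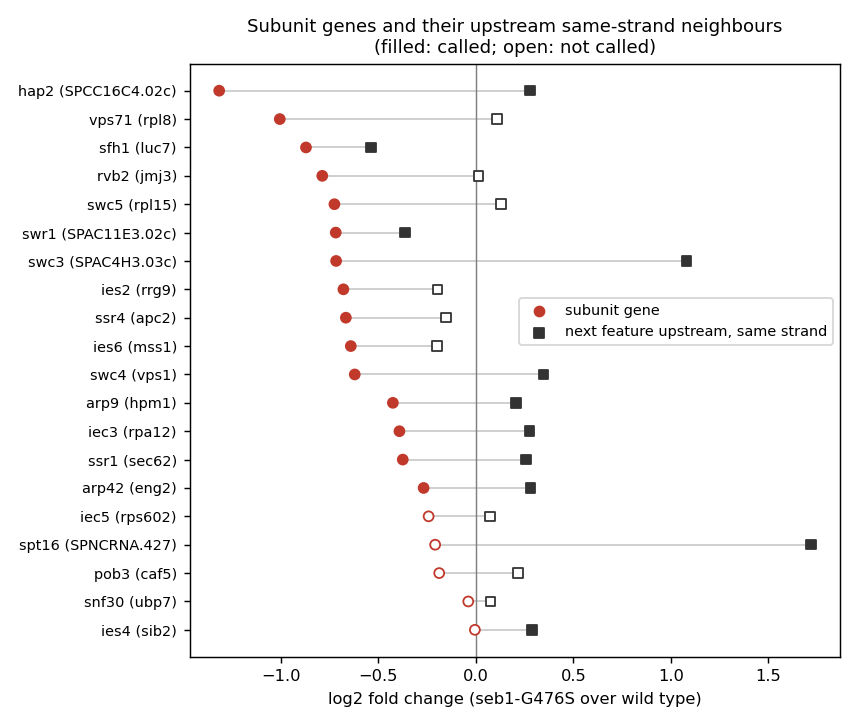
Log2 fold change of seb1-G476S over wild type for 20 subunit genes (circles) and the next feature upstream on the same strand (squares, named in brackets), ordered by the subunit's value. Filled symbols were called; 9 neighbours lie to the right of 0 and filled, and 2, luc7 and SPAC11E3.02c, to the left.

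Other chromatin factors were compared as a list of related genes: remodellers of other families, histone chaperones, subunits of the acetyltransferase NuA4 and subunits shared with it. Of 33 tested genes 14 fell (42.4%) and 5 rose (15.2%), with a median of -0.27, against the background of 31.5% and 24.3% among coding genes. The median level of the list was 45.6 CPM. Coding genes below the coding median of 53.5 CPM had shares close to those of the list, 45.7% lower and 13.4% higher, with a median of -0.30. The largest falls were those of pcf1 and pcf3, of the replication-coupled assembly factor CAF-1, and of the bromodomain gene bdc1. The level of pcf1 was 15, 17.1 and 18.4 CPM in the seb1-G476S libraries, against 26.5, 29.4 and 41.1 CPM in the wild-type libraries (log2 fold change -0.94, SE 0.17, adjusted p = 0.00133), and that of pcf3 was 29.7, 30.1 and 30.1 CPM in the seb1-G476S libraries, against 45.9, 53.8 and 59.5 CPM in the wild-type libraries (log2 fold change -0.82, SE 0.10, adjusted p = 0.000186). No library of one group reached the range of the other in either gene. The log2 fold change of bdc1 was -0.78 (adjusted p = 0.00268).

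The largest rise in this list was that of tra2, which encodes the large pseudokinase of NuA4. Its level was 311, 314 and 301 CPM in the seb1-G476S libraries, against 139, 151 and 184 CPM in the wild-type libraries, without overlap (log2 fold change 0.97, SE 0.092, adjusted p = 4.65e-05). Actin, act1, a subunit of several remodellers as well as the cytoskeleton, was called at 0.41 and epl1, a NuA4 scaffold, at 0.36. The H2A.Z gene pht1, which encodes the histone that Swr1 deposits, was named after its values were seen. It was at 137 ± 5.85 CPM in seb1-G476S and 147 ± 2.55 CPM in wild type (SD, n = 3 each) and was not called (log2 fold change -0.10, SE 0.055, adjusted p = 0.150).

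In the authors' deposited table, 23 members were lower and 2 higher at an adjusted p under 0.05, and 23 of these were called in the same direction in the edgeR test. Its second higher gene was snf5. The fold changes of the authors' deposited table lay 0.035 to 0.049 above those given here on the log2 scale for every member. For some members its overall mean lay outside the averages of both groups. For iec1 it was 706, against averages of 496 in seb1-G476S and 613 in wild type. The authors' fit may thus have held further libraries, and which libraries it held was not checked.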

How the data were processed

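Per the file headers, the authors deposited raw counts per annotated feature for 3 seb1-G476S and 3 wild-type libraries. Their second deposited table, per the file headers, holds a test score, log2 fold changes with their standard errors, raw and adjusted p-values, and mean signal as counts over size factors. Per the submitters' processing notes the build was ASM294v2, and the tools were DESeq2, HTSeq 0.10.0, SAMtools and HISAT2 2.1.0; the strand option is not given in the sources used here. Libraries were TruSeq stranded, per the labels' protocols.

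Counts of 6987 rows (6986 features after summing a repeated identifier) were tested with edgeR 4.0.16 in R 4.3.3: quasi-likelihood test, TMM scaling, filterByExpr with a minimum count of 10, two-sided, Benjamini-Hochberg over 6046 features, called at an adjusted p under 0.05. A standard error is the absolute log2 fold change divided by the root of F. The procedure was tested on simulated data. Coding status, exon length and neighbours came from the RefSeq annotation of ASM294v3; 6833 features matched by identifier, 13 by synonym and 140 did not. That build differs from the authors', so no coordinates or sequences are given. Members, lists and tests were chosen with earlier results of these data known. Full values were given for ATPase and core genes, paralogue pairs, each complex's largest called changes and called changes of at least 1.5-fold; others were named beside them. Of the 40 related names, 4 were members and 3 were not found. A count of 1 was worth 0.0371 to 0.0445 CPM. Between any 2 libraries the chi-square per degree of freedom was at least 3.87, above sampling noise. Alternatives were other scalings, filters and DESeq2 1.42.0, coding genes only, other memberships, a replicate block and leaving out each library.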

Additional observations from a re-analysis of the deposited data

How the results depend on the processing

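Of the 24 called members, 14 kept their call and direction in all 13 alternative settings, among them 11 of the 13 changed at least 1.5-fold, and 10 lost it in at least 1. Of the 15 not called, 5 passed in at least 1. No called member changed direction. With library totals alone, 25 members were lower and 0 higher (0 higher in Swr1, 1 lower in FACT), the median was -0.50, and the share of all calls that were higher moved to 33.4%, against 48.5% with TMM. Members higher numbered 2 in DESeq2, with coding genes only and with the replicate block, and 1 of SWI/SNF was higher in each of these. Membership without shared or predicted subunits gave 15 lower of 31. Leaving out each library in turn, members lower ranged from 15 to 26 and higher from 0 to 3, and the median from -0.41 to -0.26. Lower calls ranged from 5 to 9 in Ino80, 6 to 8 in Swr1, 5 to 9 in RSC, 4 to 7 in SWI/SNF and 0 to 1 in FACT; higher calls ranged from 0 to 2 in Swr1 and 0 to 1 in SWI/SNF. The counts of the related factors and of the antisense features moved by less than 1.5 times or not at all.

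For same-numbered libraries, the correlation of their deviations from the group means was 0.36, 0.058 and 0.26. Between libraries of different number it ranged from -0.30 to 0.066, the highest being seb1-G476S replicate 2 with wild-type replicate 3. For replicates 1 and 3 the same-numbered pair thus correlated best. The sample titles do not say whether same-numbered libraries were handled together, and the main test does not pair them. With the replicate block 26 members were lower and 2 higher, and 1 FACT gene, pob3, was lower. Among called members, the calls of iec1 and arp8 were kept in the fewest settings, 7 of 13 each.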

Other observations

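Across the 39 subunit genes, the log2 fold change went with the mean level (Pearson's r = 0.55, Spearman's rho = 0.46) and with the annotated exon length (r = 0.50, rho = 0.41), so that the scarcer and shorter mRNAs had the lower values. Over 4953 tested coding genes the same coefficients were 0.23 and 0.39 for level and 0.093 and 0.13 for length. Genes are not independent replicates, all values share the same 6 libraries, and level enters both axes.

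The next feature downstream on the same strand was tested for 22 members, and 11 of these neighbours fell and 3 rose, against a background of 31.8% lower and 24.7% higher for the same neighbours of all tested coding genes.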
